A study of Homo sapiens with 4 samples.

Results

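This account describes binding of the transcription factor TBX3 near genes of interferon signalling, antigen presentation and chemokines in 501mel, an established human melanoma cell line. The genes were found by name in the deposited peak annotation: names starting with HLA-, and TAP1, TAP2, TAPBP, B2M, CIITA, NLRC5, the IRF, STAT and JAK families, the interferon receptors, the CCL and CXCL chemokines and CD274. IRF4, which serves the melanocyte lineage, was left out. Of the 12468 gene names in the peak lists, 40 met this rule, and they carried 58 of the 32479 summits of replicate 1 and 71 of the 40494 summits of replicate 2. The RefSeq gene table holds 112 names that meet the same rule, 88 of them protein-coding. Of these 88, 37 were the nearest gene of a summit in either list. The like share over all genes was not counted, so this count is not a result about the members.

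The study immunoprecipitated TBX3 with an antibody to its HA tag (TBX3-3xHA) in 2 samples and took 2 input samples, which were not analysed here. All 4 samples are 501mel cells grown in the same medium, and the labels name no drug, cytokine or other treatment, so interferon was not added as far as the labels say. The labels give neither the promoter that drives the tagged protein nor its level, and they do not say whether the replicates are separate cultures. Each list gives for every peak the position of its summit in hg38, a score whose scale is not stated, and the nearest transcription start site (TSS) with its gene. A shared region is a pair of summits, one from each list, that are mutually nearest and within 200 bp. Read depth is unknown, and peak lists hold no expression, so neither the cell type nor the activity of any gene could be checked here.

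Interferons bind cell surface receptors whose Janus kinases phosphorylate STAT proteins, and STATs and interferon regulatory factors (IRFs) then switch on genes that include those for antigen presentation and several chemokines. HLA class I molecules with B2M show peptides from inside the cell to CD8 T cells. TAP1 and TAP2 carry these peptides into the endoplasmic reticulum, and NLRC5 and CIITA are the coactivators of class I and class II genes. In melanoma these genes bear on whether T cells recognise a tumour cell.

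One shared region lay close to the start site of TAP1, a member, and the nearest gene rule had given it to the neighbouring gene PSMB9. It had summits at 32854126 in replicate 1 and 32854119 in replicate 2 on chromosome 6, 7 bp apart, in the 487 bases between TAP1 and PSMB9. PSMB9 encodes a catalytic subunit of the immunoproteasome, which cuts peptides for class I molecules, and it is transcribed away from TAP1. The deposited annotation placed the summits 35 bp and 42 bp upstream of the PSMB9 TSS and named PSMB9 as nearest gene. For the replicate 1 summit it also gave the label promoter-TSS with NM_000593, which is a TAP1 transcript. TAP1 reads on the other strand, and the summits were 422 and 415 bp upstream of its RefSeq start site. Its score was 37.5 in replicate 1 (percentile 80.1 of that list) and 54.7 in replicate 2 (percentile 83.1). Both lists thus hold this region in the upper part of their scores. TAP1 was singled out after its value was seen.

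The upstream sequences of this gene pair are shown because the region lies between them: the PSMB9 sequence holds both summits, and the TAP1 sequence ends 172 and 165 bp short of them. They are the 250 bases before each start site in the RefSeq promoter table (GRCh38.p14), 5′ to 3′ on the strand of the gene, TAP1 from chr6:32853705-32853954 (minus strand) and PSMB9 from chr6:32853942-32854191 (plus strand). In TAP1 the capitals mark 2 overlapping matches to the core bound by IRFs, GAAANNGAA, here on the reverse strand. In PSMB9 none of the motifs searched was found, and the 8 capitals run from the replicate 2 summit, 73 bases before the start site of the table, to the replicate 1 summit, 66 bases before it.
TAP1: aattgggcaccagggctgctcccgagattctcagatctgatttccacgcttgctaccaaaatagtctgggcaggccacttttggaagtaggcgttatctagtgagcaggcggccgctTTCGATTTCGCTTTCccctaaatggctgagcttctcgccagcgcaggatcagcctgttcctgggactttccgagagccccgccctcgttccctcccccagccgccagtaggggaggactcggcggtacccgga
PSMB9: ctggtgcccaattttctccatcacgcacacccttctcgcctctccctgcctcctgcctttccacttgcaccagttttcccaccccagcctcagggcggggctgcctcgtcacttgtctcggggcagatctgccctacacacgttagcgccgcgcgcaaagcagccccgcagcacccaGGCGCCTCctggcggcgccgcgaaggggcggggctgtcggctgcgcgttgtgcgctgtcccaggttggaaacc

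**Figure D1:**
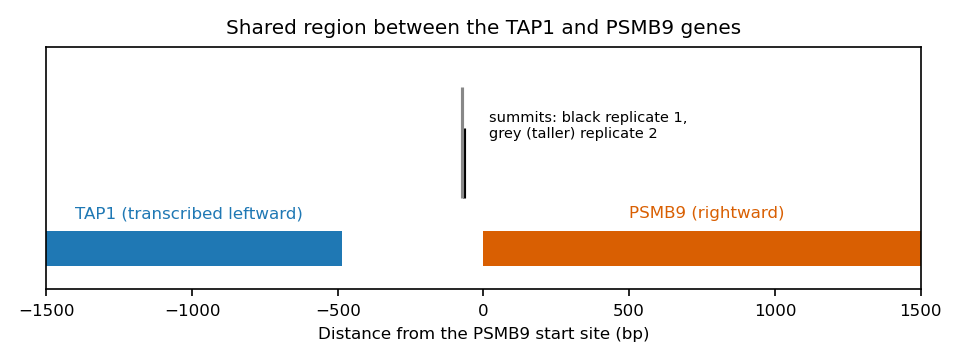
Position of the shared region between TAP1 and PSMB9, in bp from the PSMB9 start site of the RefSeq promoter table. Bars are the gene spans and vertical lines the summits, at -66 in replicate 1 and -73 in replicate 2, and their height carries no value.

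A near region of a gene is a shared region that names it as nearest gene, at most 10 kb from its TSS. Among the members, only chemokine genes had one. There were 8 such genes among 86 protein-coding members placed on the chromosomes (9.30%, 95% Wilson interval 4.79% to 17.3%), against 10.2% of all 19884 protein-coding genes. The member share was thus near the background. They were CCL16, CCL17, CCL23, CCL28, CXCL8, CXCL10, CXCL13 and CXCL17, 8 of 38 chemokine genes (21.1%, 11.1% to 36.3%). Of the other 48 members none had one, which allows a share of up to 6.25%. The difference between chemokines and the other members was not tested. Under the nearest gene rule and the 200 bp limit this leaves receptors, kinases, STATs, IRFs, HLA and TAP genes and CD274 without a near region. In single lists some of them had an unpaired summit that close, as given with each gene.

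At any distance, 25 members were the nearest gene of a shared region, 24 of them protein-coding (27.9% of 86, 19.5% to 38.2%) against 28.9% of all protein-coding genes. The 40 regions were made up of 27 at chemokine genes, 10 at receptors, kinases and STATs, 2 at class I genes, and 1 at the pseudogene HLA-DPB2. Measured instead from the whole gene, 21 of the 86 members had one at most 10 kb from their span (24.4%), against 28.6% of all protein-coding genes. The members' genes were short, with a median length of 7.60 kb against 24.4 kb, and how far length moves this share was not tested. The median distance from a member's span to the nearest shared region was 30.1 kb, with quartiles of 11.1 and 87.4 kb. Over all protein-coding genes it was 46.6 kb, with quartiles of 5.18 and 125.1 kb.

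**Figure D2:**
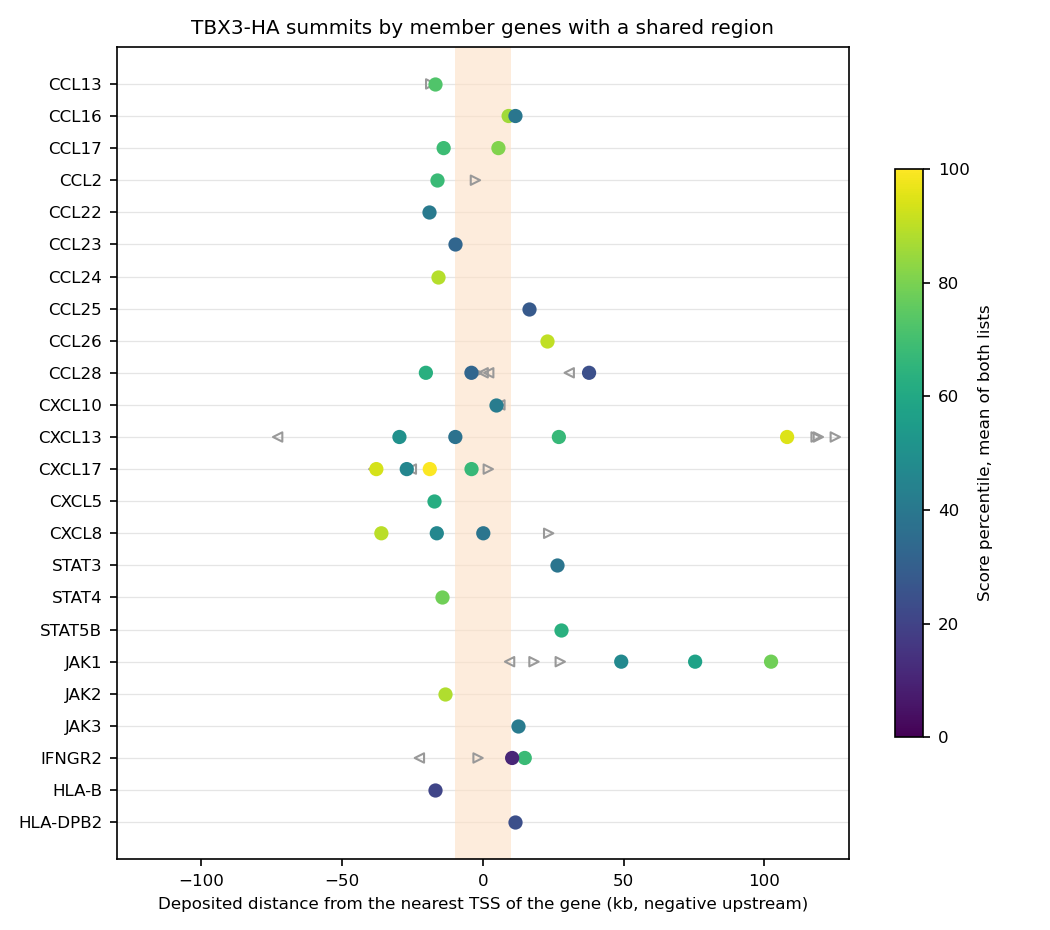
Summits by the members described here that had a shared region, placed by their deposited distance from the TSS in kb (negative upstream). Filled points are shared regions coloured by the mean of the 2 score percentiles, open triangles pointing left are summits of replicate 1 alone and those pointing right of replicate 2 alone, and the band marks 10 kb on either side. Filled points inside the band are at the 8 chemokine genes, while those of JAK1, JAK2, JAK3, STAT3, STAT4, STAT5B, IFNGR2 and HLA-B lie outside it.

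Among interferon receptors, IFNGR2, the signalling chain of the interferon gamma receptor, had 2 shared regions, both in its introns on chromosome 21. The stronger had summits at 33417772 and 33417768, 14876 bp from the TSS in intron 3 of 7, with scores of 20.6 and 28.9 (percentiles 65.5 and 70.3). The weaker, at 33413295 and 33413242, was 10399 bp from the TSS and so just outside the limit, with scores of 5.17 and 3.38. Replicate 2 alone had a summit 1709 bp upstream of IFNGR2, at a score of 13.5. IFNGR1, the ligand-binding chain, IFNAR1 and IFNAR2 had no summit assigned in either list. The nearest shared region lay 138.4 kb from the span of IFNGR1, 53.4 kb from IFNAR1 and 113.1 kb from IFNAR2.

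All 3 Janus kinase genes had shared regions, each beyond 10 kb. JAK2, which serves IFNGR2, had 1 region upstream of the gene, with summits at 4971532 and 4971505 on chromosome 9, 13554 bp from the TSS, inside an LTR16B1 repeat. Its scores were 47.4 (percentile 84.3) and 106.8 (92.1), the highest of the signalling genes in both lists. JAK1, the kinase that the interferon receptors share, had 3 regions, all inside the gene on chromosome 1. The strongest, at 64864226 and 64864333, was in intron 10 of 26 and 102343 bp from the TSS, with scores of 23.6 and 74.6. The other two, 75378 and 49137 bp from the TSS, had scores of 15.8 and 18.3, and of 7.12 and 25.0. All 3 JAK1 pairs had summits 84 to 107 bp apart, against a median of 28 bp over all shared regions. JAK3, the lymphocyte kinase, had a region in intron 14 of 23, with scores of 5.61 and 23.2. Replicate 1 alone had a JAK1 summit inside the limit, 9493 bp from the TSS, with a score of 10.8.

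Of the 7 STAT genes, 3 had a shared region, each beyond 10 kb. At STAT4 on chromosome 2, which acts in interleukin-12 signalling, a shared region at 191166256 and 191166229 lay 14660 bp upstream, with scores of 37.3 and 38.6. STAT5B had a region in its intron 1 of 18 (42248737 and 42248713 on chromosome 17, scores 15.8 and 28.0), and STAT3 one in intron 1 of 23, in an L2 repeat, with scores of 8.54 and 11.4. STAT2, the STAT of type I interferon signalling, had a summit in replicate 1 alone, 5543 bp from its TSS at a score of 3.34. STAT5A and STAT6 had unpaired summits in both lists. At STAT6, which serves interleukin-4, the summits at 57118755 and 57118982 on chromosome 12 were 227 bp apart, just outside the pairing limit, and 7342 and 7569 bp upstream. Replicate 2 alone had a further STAT6 summit 467 bp upstream, at a score of 2.79. At STAT5A, summits at 42320103 and 42319880 on chromosome 17 were 223 bp apart and lay within the neighbouring STAT3 gene, while a replicate 2 summit in a STAT5A intron, 4010 bp from the TSS, scored 21.9.

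None of the 8 IRF genes was the nearest gene of any summit in either list. IRF1, an early interferon target, was 93.7 kb from the nearest shared region, and IRF9, the DNA-binding subunit of the ISGF3 complex, was 132.4 kb from it. Nearest gene names hid 2 regions in or beside IRF genes, singled out after their values were seen. Unlike the region at TAP1, these were found by the gene span and not by closeness to a start site. The IRF8 start sites in the promoter table lay more than 10 kb from its region, and the IRF2 distance is from the span. At IRF8, a myeloid factor, summits at 85916664 and 85916634 on chromosome 16 lay in intron 6 of 8 and were assigned to MIR6774, whose TSS is 1683 bp away. Their scores were 16.8 (percentile 59.7) and 55.9 (83.5). At IRF2, a repressor of IRF1 targets, summits at 184385919 and 184385967 on chromosome 4 lay 1810 bp outside the gene and were assigned to LINC02362, with scores of 13.2 and 30.0.

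The nearest gene rule gave no class I gene a near region. The region upstream of TAP1 is the one named for PSMB9, though its replicate 1 label is a TAP1 promoter. HLA-B had a shared region 16968 bp upstream in an LTR13 repeat, with scores of 7.12 and 4.90, which are percentiles 27.2 and 13.7. HLA-C, HLA-E, HLA-F, HLA-G, B2M, TAP2, TAPBP and NLRC5 had no summit assigned in either list. An unpaired replicate 2 summit assigned to HLA-DOB, at 32826092, lay inside the TAP2 gene, at a score of 8.35. The nearest shared region was 62.7 kb from B2M and 128.1 kb from NLRC5. HLA genes are near copies of one another and differ between people, so reads can be lost or misplaced there, and how the reads were handled is not given in the sources used here. Whether that touches these counts was not tested.

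Class II genes and CIITA had no shared region of their own. The 14 genes had 1 summit in replicate 1 and 8 in replicate 2, and none was paired. In replicate 2 these lay 111 bp and 4496 bp downstream of the HLA-DPA1 TSS, 545 bp upstream of HLA-DPB1, 307 bp from the TSS of HLA-DRB5, 8079 bp from that of HLA-DRB1, 9044 bp upstream of HLA-DOB and at 2 positions upstream of CIITA. The highest score among these 8 was 13.1, at HLA-DRB1, below the list median of 13.9. CIITA summits differed in place between the lists: 18351 bp downstream of the TSS in replicate 1 (score 2.78), and 5464 and 26731 bp upstream in replicate 2 (scores 6.22 and 2.07). The shared region closest to CIITA was 6639 bp outside its span and was assigned to CLEC16A, with scores of 8.64 and 8.63.

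CD274, which encodes the checkpoint ligand PD-L1, had no summit in either list. The nearest shared region lay 125.9 kb from its span, farther than the upper quartile of 125.1 kb over all protein-coding genes.

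The strongest member region was near CXCL17, a chemokine of mucosal tissue. Summits at 42461895 and 42461889 on chromosome 19 lay 18847 and 18841 bp upstream of its TSS, with scores of 358.5 (rank 142) and 463.1 (rank 187). It was the sole member region among the 1000 highest of replicate 1. CXCL17 had 3 further shared regions, 4027, 27024 and 37822 bp upstream, and all 4 lay inside LIPE-AS1, a non-coding transcript. The one 37822 bp upstream ranked 2660 in replicate 1 and 1976 in replicate 2 and was 26436 bp from the span of CEACAM1, which encodes an inhibitory adhesion receptor. Only the region 4027 bp upstream counted as near, with scores of 16.9 and 34.1. Replicate 2 alone had a summit closer to the TSS, 1924 bp downstream of it, at a score of 3.75.

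CXCL8, the neutrophil chemokine interleukin-8, was the sole member with an assigned shared region less than 1 kb from its TSS; the region named for PSMB9 is also that close to TAP1. Summits at 73740658 and 73740623 on chromosome 4 fell in its 5′ untranslated region, 152 and 117 bp from the deposited TSS. The scores were low to middling, 12.4 in replicate 1 (percentile 49.1) and 7.62 in replicate 2 (28.7). The other two CXCL8 regions were upstream, and the one 36040 bp away, within the non-coding gene INKILN, was the stronger, with scores of 77.8 and 77.2. The CXCL8 upstream sequence (chr4:73740319-73740568, plus strand) is shown because a region lay just past it, with the replicate 1 summit 89 bp after the start site of the promoter table. Capitals mark the one match found, to the short T-box motif GTGTGA, beginning 143 bases before the start site.
CXCL8: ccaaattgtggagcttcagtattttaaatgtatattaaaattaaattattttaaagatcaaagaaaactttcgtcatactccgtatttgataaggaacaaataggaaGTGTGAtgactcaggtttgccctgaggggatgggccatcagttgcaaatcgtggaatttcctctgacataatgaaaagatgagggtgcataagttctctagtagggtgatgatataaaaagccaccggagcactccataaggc

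CXCL13, which draws B cells, had 4 shared regions, the strongest 108040 bp downstream of the deposited TSS. It stood at the same base, 77619793, in both lists (scores 107.1 and 148.8). The near region of CXCL13, 9774 and 9830 bp upstream of the deposited TSS, scored 7.12 and 13.1, just inside the limit. The promoter table holds a further CXCL13 start, with upstream bases at 77605570-77605819. It lies between the deposited TSS and the strongest region, so these distances hold for the deposited TSS alone. CXCL10, an interferon-induced attractant of CXCR3-bearing T cells, had a shared region 4510 bp from its TSS in an AluJb repeat within intron 1 of ART3, with scores of 11.6 and 9.59. Each list also had an unpaired CXCL10 summit, at 76017483 (score 20.2) and 76017820 (score 11.4), 337 bp apart. CXCL9 and CXCL11, which share this receptor and this locus, had none assigned. CXCL5 had 1 region 17500 bp upstream, with scores of 14.1 and 30.0. CXCL1 and CXCL6 had summits in replicate 2 alone, and CXCL2, CXCL3, CXCL12, CXCL14 and CXCL16 had no summit.

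Of the 24 CC chemokine genes, 4 had a near region and 10 a shared region at any distance. CCL16 and CCL17 had the highest scoring near regions of all 8 genes in both lists. CCL17 is an attractant of CCR4-bearing T cells, and its near region stood at 57410290 and 57410326 on chromosome 16 in intron 1 of 3, 5523 bp from the TSS, with scores of 37.0 and 53.4. A further CCL17 region, 13923 bp upstream in an MSTC repeat, scored 15.8 and 43.7. At CCL16 on chromosome 17 a region in a MIR repeat, 9148 bp from the TSS, scored 44.0 and 78.1, and a weaker one was 11569 bp away. CCL23, a monocyte attractant, passed by replicate 1 alone, since its summits were 9955 and 10107 bp upstream (scores 7.12 and 9.86). CCL28, an epithelial chemokine, had its near region 4058 bp upstream, where the replicates disagreed most in rank: the score was 16.6 in replicate 1 (percentile 58.9) and 3.68 in replicate 2 (6.42). Replicate 1 alone also had CCL28 summits 113 and 2083 bp from the TSS, with scores of 3.06 and 5.12. Replicate 2 alone had one 2043 bp upstream, at a score of 3.68. A further 2 shared regions lay farther off, 20235 and 37714 bp away.

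Farther from the deposited TSS of CC chemokine genes, scores reached higher. CCL26 and CCL24, eosinophil attractants beside each other on chromosome 7, had a region each, 22665 bp downstream (scores 75.8 and 90.1, in an AluY repeat) and 16096 bp upstream (60.8 and 86.6, in a MIRc repeat). From the gene spans these lay 2443 bp (CCL26) and 6439 bp (CCL24) away. At CCL24 the promoter table holds another start at the upstream end of the span. Measured from that start, the CCL24 region would lie inside the 10 kb limit. CCL2, the monocyte attractant, had a region 16299 bp upstream with scores of 18.4 and 33.2, and replicate 2 alone had a summit 2646 bp upstream (score 7.42). At CCL13 a region in an L1PA14 repeat, 17091 bp upstream, scored 18.4 and 52.3. CCL22 (19046 bp upstream, scores 15.1 and 6.91) and CCL25 (16427 bp downstream, within FBN3, scores 8.31 and 6.43) completed the shared regions. CCL18 had a summit 284 bp upstream in replicate 2 alone (score 4.90), and CCL20, an attractant of CCR6-bearing cells, had unpaired summits in both lists, the one of replicate 1 scoring 25.0. CCL1, CCL3, CCL4, CCL5, CCL7, CCL8, CCL11, CCL14, CCL15, CCL19, CCL21 and CCL27 had no summit.

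**Figure D3:**
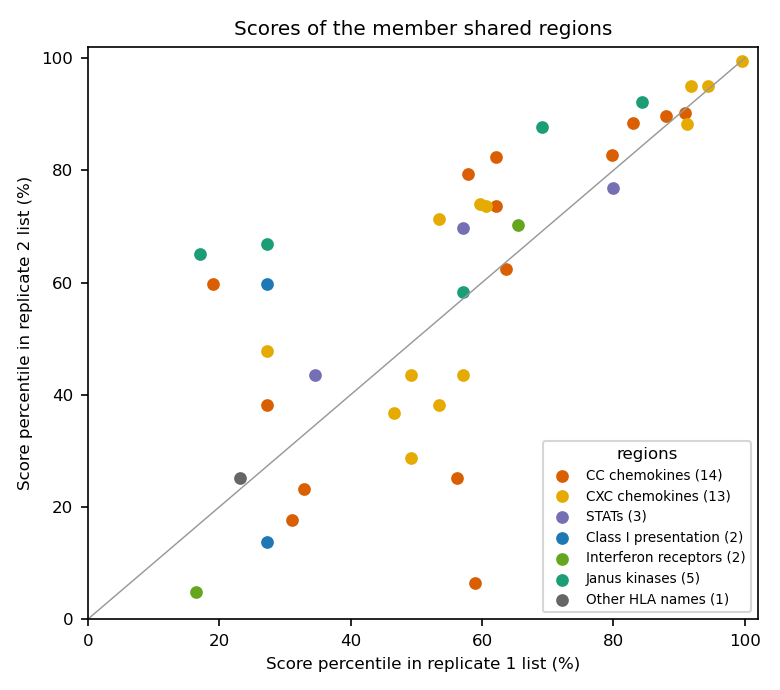
Score percentile of each of the 40 member regions in the replicate 1 list (x axis) and the replicate 2 list (y axis), coloured by role, with the line of equal percentiles. The CXCL17 region stands at 99.6 and 99.5, while CCL28 at 58.9 and 6.42 and JAK3 at 17.1 and 65.2 lie farthest from the line.

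The member summits recurred about as often as others. In replicate 1, 40 of 58 had a partner (69.0%, 56.2% to 79.4%) against 69.9% of all summits, and in replicate 2, 40 of 71 (56.3%, 44.8% to 67.3%) against 56.1%. Shared member regions had a median percentile of 57.2 in replicate 1 and 66.1 in replicate 2, against 63.6 and 70.5 over all shared regions. Summits were a median of 35.5 bp apart, and 27 of the 40 pairs were within 50 bp (67.5%, against 71.4% overall). Across the 40 regions the scores had a Spearman's rho of 0.808, against 0.852 over all 22702; regions of one locus and one pair of libraries are not independent, and no p is attached. By the deposited annotation, 22 regions were intergenic, 17 intronic and 1 in a 5′ untranslated region. A repeat held 19 of the 40 (47.5%, against 41.7% of all shared regions), 8 of them in LTR, 6 in SINE and 5 in LINE elements. The share over all shared regions takes in every repeat class, satellites included, while none of the 40 lay in a satellite. Of the 40, 13 lay inside the span of the member named and 26 inside no protein-coding gene.

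**Figure D4:**
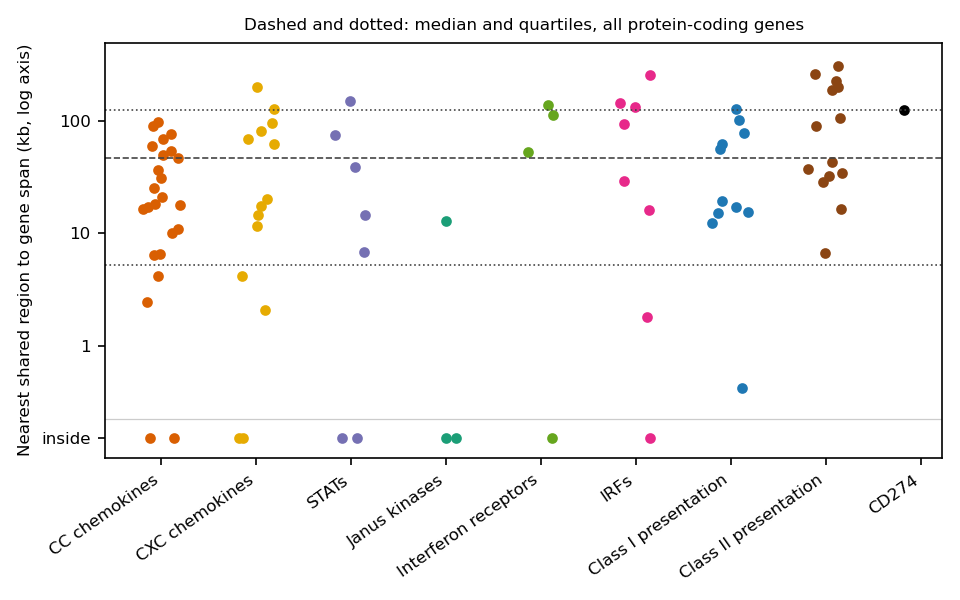
Distance in kb, on a log axis, from each protein-coding member's gene span to the nearest shared region, whichever gene it was assigned to, with regions inside the span drawn at the bottom. Dashed and dotted lines are the median (46.6 kb) and quartiles of all protein-coding genes. TAP1, at 0.422 kb, is the lowest point of the class I genes.

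Other genes of the same pathways, taken from lists that hold no member, had a near region about as often as genes at large: 13 of 118 (11.0%, 6.55% to 17.9%) against 10.2%. By list these were 3 of 16 antigen processing genes (CD74, ERAP2 and PSMB9), 6 of 32 interferon-induced genes (GBP1, GBP4, IFI35, IFIT3, MX2 and OAS3), 1 of 10 nucleic acid sensors (TLR3), 1 of 22 chemokine receptors (CCR4) and 2 of 17 checkpoint and adhesion genes (CD276 and CD86). None of the 15 regulators of JAK and STAT signalling, such as SOCS1, SOCS3 and TYK2, had one, which allows a share of up to 20%, above the background. The 6 other chemokines had none.

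The 5 with the lowest rank sums were IFI35, CCR4, CD74, GBP1 and PSMB9. At IFI35, an interferon-induced protein, summits at 43010968 and 43010959 on chromosome 17 were in intron 1 of 6, 4243 bp from the TSS, with scores of 88.7 and 173.8. At CCR4, the receptor of CCL17 and CCL22, a region 5737 bp from the TSS scored 74.9 and 158.3. CD74, the class II invariant chain, had a region 6988 bp upstream, with scores of 38.7 and 94.5. GBP1, a guanylate-binding protein of interferon gamma responses, had one 1082 bp from the TSS, with scores of 61.5 and 46.5. ERAP2, which trims peptides for class I molecules and was singled out after its value was seen, had a promoter region 82 bp from its TSS (96876021 and 96876018 on chromosome 5, scores 29.0 and 52.3). Both lists thus had a summit at the promoters of PSMB9 and ERAP2.

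**Figure D5:**
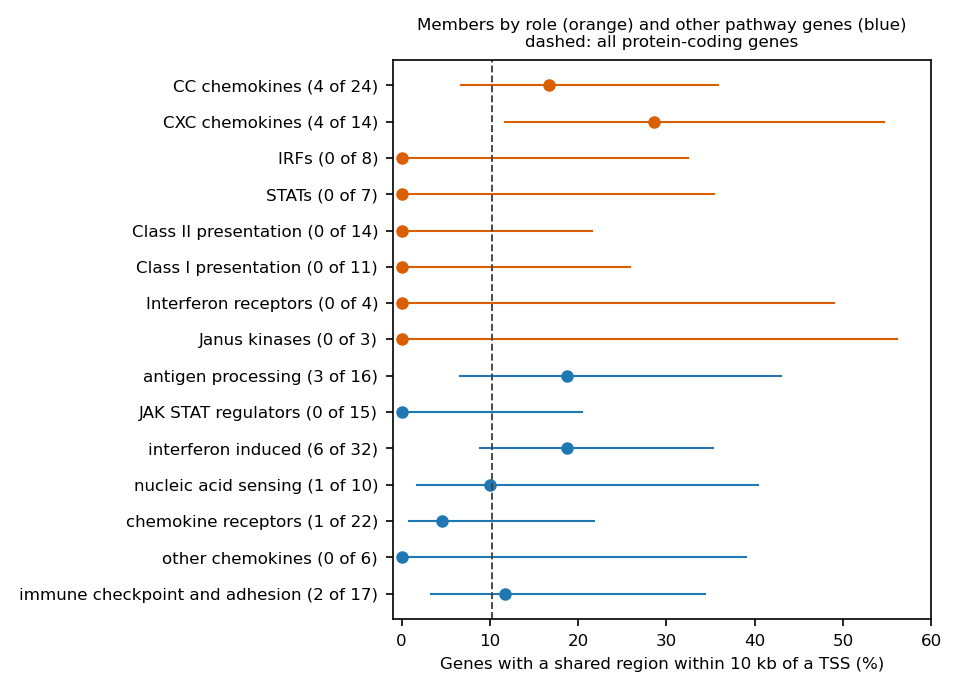
Percentage of genes with a near region (at most 10 kb from a TSS, by the deposited nearest gene) for members by role (orange) and other pathway genes (blue). Lines are 95% Wilson intervals, numbers count genes, and the dashed line is the 10.2% of all protein-coding genes. The interval of the CXC chemokines (4 of 14) starts above the dashed line, and the other intervals cross it.

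Promoter sequence was at hand for 69 of the 112 members, in 92 windows that run from 250 bases before to 50 after a start site. All motifs were searched on both strands. The T-box core GGTGTGA was in 7 of these windows (7.61%), against 3.45% of all 35116 windows. Its holders were CCL1, CCL19, CXCL17, HLA-DQB1-AS1, IFNAR1, IFNGR1 and JAK3, and of these CXCL17 and JAK3 had a shared region, neither within the window. The shorter GTGTGA, which lies within the core, was in 12 windows (13.0%, against 12.0%). The E-box CACGTG was in 2 member windows (2.17%, against 7.26%) and the CATGTG of the M-box in 13 (14.1%, against 11.1%). The IRF core GAAANNGAA was in 17 (18.5%, against 8.11%) and the STAT motif TTCNNNGAA, known as GAS, in 14 (15.2%, against 7.66%). Of 404 windows genome-wide that held a replicate 1 summit of a shared region, 7.18% had the T-box core, 17.6% the E-box and 20.0% the M-box core. The interferon motifs were in 8.17% (IRF) and 8.42% (GAS) of them. Windows of a gene overlap, and these shares are descriptions.

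B2M and CD274 are shown as members whose promoters hold interferon motifs and whose genes had no summit in either list. B2M is read from chr15:44711267-44711516 (plus strand) and CD274 from chr9:5450292-5450541 (plus strand). Capitals mark 2 overlapping IRF matches in B2M, beginning 144 and 138 bases before the start site. In CD274 they mark 2 overlapping IRF matches on the reverse strand, from 207 bases before it, and 1 GAS match, from 125 bases before it.
B2M: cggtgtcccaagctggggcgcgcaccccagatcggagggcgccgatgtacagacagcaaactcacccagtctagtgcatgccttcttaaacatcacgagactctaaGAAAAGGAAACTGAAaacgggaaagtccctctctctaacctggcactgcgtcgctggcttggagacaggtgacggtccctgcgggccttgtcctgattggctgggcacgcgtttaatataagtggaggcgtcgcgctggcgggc
CD274: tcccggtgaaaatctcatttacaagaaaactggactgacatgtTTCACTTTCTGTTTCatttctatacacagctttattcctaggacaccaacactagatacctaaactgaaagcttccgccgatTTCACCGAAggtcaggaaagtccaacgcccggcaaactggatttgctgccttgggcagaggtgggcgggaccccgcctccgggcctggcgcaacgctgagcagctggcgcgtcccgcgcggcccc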

How the data were processed

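ChIP-seq peak lists of 2 anti-HA samples of 501mel cells were analysed, 1 list per sample, so replicates were not pooled. Per the file headers, summits were annotated with HOMER annotatePeaks.pl against hg38. The submitters' processing notes name FastQC 0.11.7, cutadapt 2.8, Bowtie2 2.3.5, MACS2 2.1.2 and SAMtools 1.9, without their settings. The authors deposited a score per peak, with no stated scale, which was used only to rank or describe summits within its own list. Depth is unknown. Input samples (2) were not analysed here.

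Groups came from sample titles. Summits were paired when mutually nearest within 200 bp. Pairing was tested on simulated data with widely spaced summits and partners planted inside the limit, so the test does not bear on closely spaced summits. A gene counted as near when either list placed a shared summit at most 10 kb from its TSS. No test was run, since there is 1 condition; counts stand beside those of all 19884 protein-coding genes on chromosomes 1 to 22, X and Y in the RefSeq table (GRCh38.p14), matched by gene identifier. All 40 member names matched the table. Of the 112 names, 5 had no chromosome coordinates there. Wilson intervals (95%) reflect counting error alone, and the limit for a count of 0 is 3 genes of the total. Members and lists were chosen with earlier results of these data known. Values are given for every member with a near region, for the 10 members of lowest rank sum with farther regions only, for B2M, CIITA, NLRC5, CD274, IFNGR1, IFNGR2, JAK1, JAK2 and IRF1, and for the 5 other pathway genes of lowest rank sum. Further members with summits are given to account for them, and the values of some members are not reported here. Alternatives varied the pairing distance, score, sequences, distance limit, list and repeats. Python 3.11.15, pandas 2.3.3, numpy 2.4.6, scipy 1.17.1, statsmodels 0.14.6 and matplotlib 3.10.9 were used.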

Additional observations from a re-analysis of the deposited data

How the results depend on the processing

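Of 31 alternatives, 17 kept the count within 1.5 times or the share within its interval and 14 moved it. Settings on repeats and on protein-coding members were chosen after seeing the data. The number of members with a near region, 8, became 3 with pairing within 50 bp (CCL16, CCL17 and CXCL8), 3 with scores at or above the list median (CCL16, CCL17 and CXCL17), 5 outside annotated repeats, 1 within 1 kb of the TSS (CXCL8), 25 within 50 kb and 26 by the gene span widened by 10 kb, which counts pseudogenes and regions assigned to neighbours. With 1 list alone it was 18 without replicate 1 and 13 without replicate 2, since a partner is then not asked for; these counts take in STAT6 in both cases, with HLA and CIITA summits added by replicate 2 and JAK1 and STAT2 among those added by replicate 1. The absence of a near region at members other than chemokines thus holds for pairs within 200 bp under the nearest gene rule. It does not hold for single lists, and within 500 bp STAT6 joined. It also rests on that rule at TAP1, whose start site lay 422 and 415 bp from the summits of a pair assigned to PSMB9. The number of members with a shared region at any distance, 25, became 16 with scores at or above the median, 13 outside repeats, and 38 without replicate 1 or 31 without replicate 2. The share of member summits with a partner became 46.6% in replicate 1 and 38.0% in replicate 2 within 50 bp, and 72.4% in replicate 2 above the median score. Beyond what each setting removes, the cause was not tested. Except for the gene span, these gene counts were not made over all protein-coding genes. Whether genes at large move alike was therefore not tested. No paired analysis was possible because there is 1 ChIP condition and the input samples of the same numbers were not analysed here. Depth is unknown, so a missing summit does not show that binding was absent.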

Other observations

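In a stretch of the major histocompatibility complex that holds most class II genes, the shared regions were mostly assigned to other genes. Between HLA-DRA and TAPBP, 5 shared regions outside satellites lay in 0.874 Mb (5.72 per Mb, against 6.24 per Mb over all chromosomes). Besides PSMB9 and HLA-DPB2, these were 2 at BRD2, a chromatin reader, 930 and 226 bp from its TSS, and 1 at the non-coding HCG24, 1224 bp from its TSS, which was the strongest (percentile 91.1 in replicate 1 and 89.2 in replicate 2).

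Clusters whose members are all chemokines held 0 to 3 shared regions each, at densities on both sides of the 6.24 per Mb over all chromosomes. The cluster from CCL5 to CCL4 on chromosome 17 had 3 regions in 0.234 Mb (12.8 per Mb), that from CCL2 to CCL1 had 1 in 0.108 Mb (9.26 per Mb), and that from CXCL8 to CXCL2 on chromosome 4 had 2 in 0.359 Mb (5.58 per Mb). That from CXCL9 to CXCL11 had 1 in 0.0348 Mb (28.7 per Mb). Between CCL27 and CCL21 on chromosome 9 there were 0 regions in 0.0482 Mb. These densities were not tested.

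A shared region 6761 bp from the span of STAT6 was assigned to NAB2, a corepressor of EGR proteins. Its summits, at 57088647 and 57088606 on chromosome 12, were 247 and 288 bp from the NAB2 TSS and scored 29.4 and 16.0.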
